A study of Mus musculus with 4 samples.

Results

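Fibre cells of the lens are held in shape by a beaded intermediate filament and joined by membrane channels, and 9 genes for these proteins were followed here in whole mouse lenses. They were taken by name from a table of 56748 genes: *Bfsp1*, *Bfsp2* and *Vim* for the filaments, *Mip*, *Aqp1* and *Aqp5* for the water channels, *Gja3* and *Gja1* for the gap junctions, and *Lim2* for a fibre membrane protein. Messenger RNA was sequenced from 2 libraries of mutant lenses and 2 libraries of control lenses, each library a pool of lenses from several mice 10 to 12 days old. The mutant mice were labelled *Fsp1-cre;Pdgfrb+/D849V*, which gives them a single copy of an activating allele of the PDGF receptor beta at its own locus, switched on where the *Fsp1* (*S100a4*) promoter drives cre. This promoter is not particular to the lens. The earliest robust cre reporter activity that the study describes in the lens epithelium was at an age of several weeks, and cataract came later. Both ages are beyond those of these libraries. Whether the allele was switched on in lenses of 10 to 12 days was not tested here. Both control libraries were labelled *Fsp1-cre;Pdgfrb+/+*, whereas the methods of the study describe control pools that also held mice without cre and mice with the unswitched allele. All mice were on an FVB/N background.

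*Bfsp1* (filensin) and *Bfsp2* (CP49) encode the assembly partners of the beaded filament, which is made in lens fibres and lies below their membranes. *Vim* encodes vimentin, the filament protein of the lens epithelium and of younger fibres. *Mip* encodes aquaporin-0, the main protein of the fibre membrane, which carries water and helps fibres adhere to each other. *Aqp1* is the water channel of the lens epithelium and is also made by vessel endothelium and red blood cells, and *Aqp5* is a further water channel found in epithelium and fibres. *Gja3* encodes connexin 46 of the gap junctions between fibres, and *Gja1* encodes connexin 43, the gap junction protein typical of the epithelium. Variants of several of these genes, *Bfsp2*, *Mip*, *Lim2* and *Gja3* among them, are known causes of inherited cataract.

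The 3 water channel genes share a defining feature, a pair of Asn-Pro-Ala boxes that line the pore, and the coding sequence around each box is shown because it is what makes these genes one family. The stretches were read from the GRCm38 genome with the GENCODE M21 annotation, 5′ to 3′ on the plus strand, each within 1 coding exon, with the 9 bases of the Asn-Pro-Ala codons in capitals.
*Mip*, first box, chr10:128226074-128226100: gcccatgtcAACCCTGCGgtcactttt
*Aqp1*, first box, chr6:55336707-55336733: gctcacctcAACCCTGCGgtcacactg
*Aqp5*, first box, chr15:99591467-99591493: ggccacatcAATCCGGCCattactctg
*Mip*, second box, chr10:128227648-128227674: gcggggatgAACCCAGCCcgctccttt
*Aqp1*, second box, chr6:55345828-55345854: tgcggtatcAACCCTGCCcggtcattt
*Aqp5*, second box, chr15:99593261-99593287: tgttccatgAACCCAGCCcgatctttc
Over the 27 bases of the first box, *Mip* matched *Aqp1* at 21 and *Aqp5* at 17, and *Aqp1* matched *Aqp5* at 18. Over the second box, *Mip* matched *Aqp1* at 19 and *Aqp5* at 18, and *Aqp1* matched *Aqp5* at 18. No stretch of 31 bases was shared between any of the 9 genes, so that reads of one were distinct from reads of another at that length. With genes outside the family, such stretches on either strand made up 56.4% of *Mip* and 10.5% of *Bfsp2*, through genes that overlap them on the opposite strand, 1.36% of *Gja1*, 0.187% of *Vim* and none of the others.

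In the deposited table, whose build is mm39 by the submitters' processing notes, *Bfsp1* lies at chromosome 2, 143668448 to 143705093 (minus strand), *Bfsp2* at chromosome 9, 103302123 to 103357619 (minus) and *Vim* at chromosome 2, 13578738 to 13587637 (plus). *Mip* lies at chromosome 10, 128061707 to 128067681, *Aqp1* at chromosome 6, 55313417 to 55325540, and *Aqp5* at chromosome 15, 99488663 to 99492710, all on the plus strand. *Gja3* lies at chromosome 14, 57271917 to 57295557 (minus) and *Gja1* at chromosome 10, 56253426 to 56278609 (plus). Reads over all exons of a gene, untranslated parts included, enter 1 value.

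The values were deposited as FPKM, fragments scaled by gene length and by a denominator for each library, and whole reads were recovered from them. The denominators were 0.944 to 1.05 times the recovered reads, so they were not the plain library size. The libraries held 18561682 to 18878768 reads, of which crystallin genes took 58.6% to 62.9%. Of the 12 lens fibre markers outside this family, all were measured, with a summed FPKM of 2564 to 3206 in the mutant and 2694 to 2951 in the control libraries, led by *Grifin* (1022 to 1428) and *Tdrd7* (504 to 627). The 8 lens epithelium markers summed to 370 to 402 in the mutant and 394 to 414 in the control libraries, led by *Sparc* (234 to 260) and *Foxe3* (103 to 122). Markers of neighbouring tissues were low: the retina list summed to at most 3.76 and the cornea list to at most 0.898 in any library, with *Kera* listed at 0. In these bulk samples, fewer cells of a type cannot be told apart from less RNA per cell.

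The family spanned a wide range of levels by FPKM, with *Mip* and *Bfsp1* far above the rest. *Mip* ranked 18 among all genes by mean FPKM and *Bfsp1* ranked 19, followed by *Gja3* at 70, *Vim* at 74 and *Bfsp2* at 159, then by *Aqp5* at 1756, *Aqp1* at 1819 and *Gja1* at 3649. *Mip* stood above *Bfsp1* in 4 of 4 libraries but only by 1.18-fold on average, and their ranges overlapped. *Bfsp1* stood 11.3-fold above *Gja3*, and the ranges were apart. *Gja3* and *Vim* were 1.03-fold apart, in this order in 3 of 4 libraries, and did not differ beyond their spread. *Vim* stood 2.34-fold above *Bfsp2* and *Bfsp2* 12.5-fold above *Aqp5*, each with ranges apart. *Aqp5* and *Aqp1* were 1.05-fold apart, in this order in 2 of 4 libraries, and their ranges overlapped, whereas *Aqp1* stood 2.32-fold above *Gja1* with ranges apart.

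This order depends on the gene length used for the FPKM. The table counts all exon bases of a gene, 4743 for *Vim* and 10257 for *Gja1*, but the longest protein-coding transcripts of these genes in GENCODE M21 have 2193 and 3182 bases. With transcript lengths, a choice made after the values were seen, the mean was 594 FPKM for *Vim* against 304 for *Gja3*, and 12.4 for *Gja1* against 8.94 for *Aqp1*, so both of these orders turned. *Mip* at 3791 and *Bfsp1* at 3237 FPKM stayed at the head on this scale. Ratios between genes move with the lengths in the same way: over the means, *Gja3* to *Gja1* was 73.6 by the lengths of the table and 24.5 by transcript lengths, *Bfsp1* to *Vim* was 11.7 and 5.45, and *Mip* to *Aqp5* was 404 and 279. A change of length multiplies all libraries alike, so that the comparisons of such a ratio between the groups are the same with either.

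**Figure D1:**
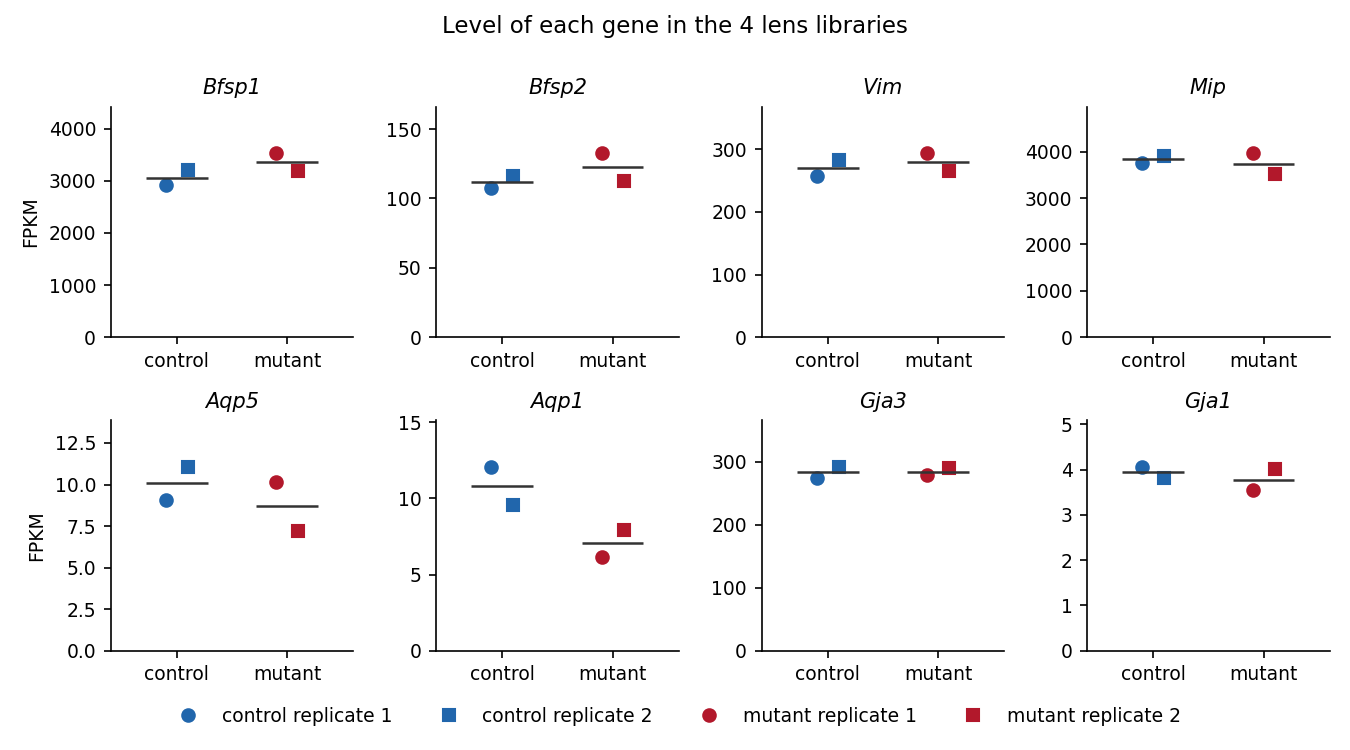
Level of each gene in the 4 lens libraries, in FPKM on linear axes that start at 0 and differ between panels. Points are single libraries (circles replicate 1, squares replicate 2) and bars are group means; *Aqp1* is the 1 gene whose mutant and control points do not overlap.

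Between mutant and control lenses, the 8 genes with reads split evenly in sign, 4 higher and 4 lower, and their median log2 fold change (mutant over control) was -0.02, beside 0.0041 for all genes. The largest difference was in *Aqp1*, at 0.652 times the control level, and the other 7 differed by -0.22 to 0.13 on the log2 scale with intervals that included 0. No member passed an adjusted p of 0.05, neither by limma on log2(FPKM + 0.1), where their adjusted p ran from 0.717 to 0.996, nor by voom on the recovered reads, where the lowest was 0.210. Over all 15997 genes tested, 0.0375% passed the adjusted threshold. At an unadjusted p under 0.05, limma passed 1 of the 8 members (*Aqp1*) and 6.31% of all genes, and voom passed 1 member and 7.3% of all genes. The groups did not overlap in 1 of the 8 members, against 36.6% of all genes. Overlap was read from the deposited FPKM alone and was not recomputed with equal sums of FPKM. Of all genes tested, 8117 were higher and 7880 lower in the mutant by sign.

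**Figure D2:**
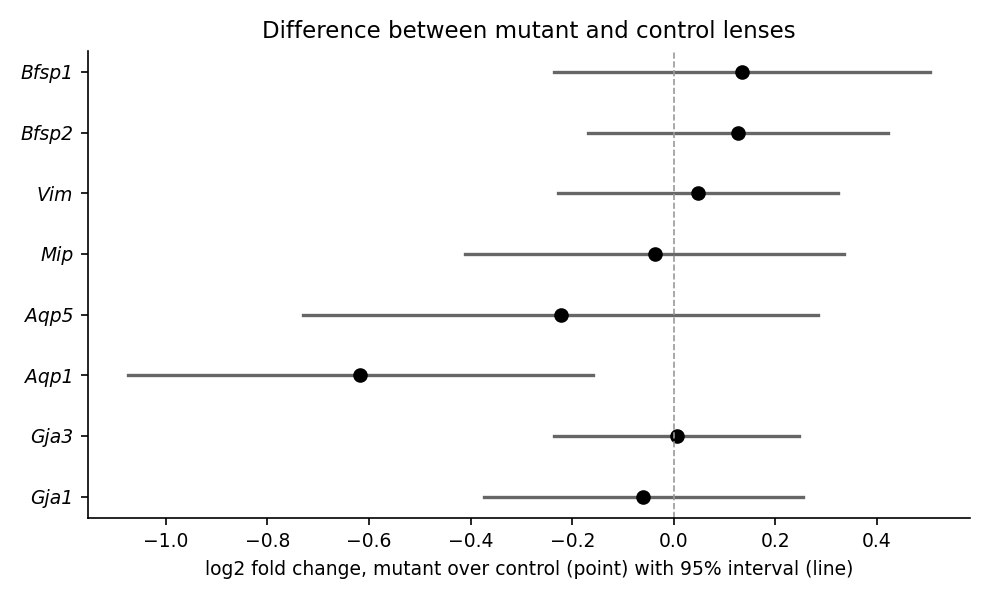
Log2 fold change of each gene, mutant over control, on the log2(FPKM + 0.1) scale (points) with the 95% interval from limma (lines), 2 libraries a group. The interval of *Aqp1* runs from -1.07 to -0.16 and does not reach 0; the other 7 intervals include 0.

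Among the filament genes, *Bfsp1* was read at 3533 and 3190 FPKM in mutant replicates 1 and 2 and at 2911 and 3215 FPKM in control replicates 1 and 2. Mutant replicate 1 was the highest and control replicate 1 the lowest, and the groups overlapped. The mean was 3362 ± 242 FPKM (SD, n = 2) in the mutant and 3063 ± 215 FPKM (SD, n = 2) in the control, a log2 difference of 0.13 with an interval of -0.24 to 0.50 and an adjusted p = 0.846 by limma. Its partner *Bfsp2* was read at 133 and 113 FPKM in the mutant and 108 and 116 FPKM in the control libraries. *Bfsp2* showed the same order of the libraries as *Bfsp1*, and its log2 difference was also 0.13, with an interval of -0.17 to 0.42 and an adjusted p = 0.820 by limma. *Vim* was read at 294 and 265 FPKM in the mutant and 257 and 283 FPKM in the control libraries, again with overlapping groups. Its log2 difference was 0.05, with an interval of -0.23 to 0.32 and an adjusted p = 0.939 by limma. With the libraries set to equal sums of FPKM without crystallins, the difference in *Vim* was -0.00037, so it has no settled sign.

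Taken within a library, the filament genes kept close proportions. There were 26.6 and 28.3 FPKM of *Bfsp1* for each FPKM of *Bfsp2* in the mutant libraries and 27.0 and 27.6 in the control libraries, an overlap of the groups with a log2 difference of 0.01 and an exact permutation p = 1. *Bfsp1* stood at 12.0 times *Vim* in both mutant libraries and at 11.3 and 11.4 times *Vim* in the control libraries, so the mutant ratio was higher in 2 of 2 libraries. This log2 difference was 0.09 and its exact permutation p was 0.333, which is the smallest two-sided value that 2 against 2 libraries can give. Over the 7 ratios computed, the adjusted p of both was 0.933 or above by the exact permutation test.

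The reads of *Bfsp2* and *Mip* can include those of genes on the opposite strand, since no source used here says whether counting used strand. In GENCODE M21, 11.8% of the exon bases of *Bfsp2* lie over *5830418P13Rik*, a gene named after its values were seen, which had 225 and 283 reads in mutant lenses against 183 and 192 in control lenses. *Bfsp2* itself had 3563 to 4019 reads. In the same annotation, 1223 exon bases of *Mip* (57.0%) lie over the opposite-strand gene *Gm26847*, which has 0 rows in the deposited table.

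Among the water channels, *Mip* was read at 3974 and 3515 FPKM in the mutant and at 3768 and 3906 FPKM in the control libraries. The mutant libraries held both the highest and the lowest value, so the groups overlapped fully. The mean was 3744 ± 324 FPKM (SD, n = 2) in the mutant and 3837 ± 97.7 FPKM (SD, n = 2) in the control, a log2 difference of -0.04 with an interval of -0.41 to 0.34 and an adjusted p = 0.966 by limma. *Aqp5* was read at 10.2 and 7.23 FPKM in the mutant and 9.06 and 11.1 FPKM in the control libraries, again with overlap. Its log2 difference was -0.22 with an interval of -0.73 to 0.28 and an adjusted p = 0.815 by limma.

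*Aqp1* was the exception among the 8. It was read at 6.15 and 7.93 FPKM in the mutant libraries and at 12.1 and 9.58 FPKM in the control libraries, from 288 and 408 reads and from 618 and 464 reads. Both mutant libraries lay below both control libraries. The mean was 7.04 ± 1.26 FPKM (SD, n = 2) in the mutant and 10.8 ± 1.78 FPKM (SD, n = 2) in the control, which is 0.652 times the control level with an interval of 0.475 to 0.895. On the log2 scale the difference was -0.62 with a standard error of 0.18 and an interval of -1.07 to -0.16. Limma gave an unadjusted p of 0.0177 and an adjusted p = 0.717. At an unadjusted p under 0.05 by limma, 2.92% of all genes were lower in the mutant. The unadjusted call was lost on leaving out any of the 4 libraries: by limma the unadjusted p was 0.159 without mutant replicate 1, 0.0545 without mutant replicate 2, 0.162 without control replicate 1 and 0.0573 without control replicate 2. With a covariate for the *Xist* level of the pools, which was low in mutant replicate 1 and control replicate 2, voom gave an adjusted p of 9.9e-04 for *Aqp1* and called 138 genes in all. That model was chosen after the values were seen and has 1 residual degree of freedom a gene.

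Marker levels of the other cells that make *Aqp1* were compared beside it. The red blood cell list summed to 25.2 and 17.2 FPKM in the mutant and 34.9 and 21.6 FPKM in the control libraries, with *Hba-a1* between 9.12 and 21.7 and *Hba-a2* listed at 0. The vessel endothelium list was led by *Cldn5* (3.57 to 5.94) and *Egfl7* (2.27 to 2.93). It summed to 11.1 and 8.05 FPKM in the mutant and 11.4 and 9.06 FPKM in the control libraries. The groups overlapped in both lists. By sign, 6 of the 7 endothelial genes and 3 of the 3 red blood cell genes tested were lower in the mutant. The red blood cell and vessel endothelium sums were lowest in mutant replicate 2. The lens epithelium sum was lowest in mutant replicate 1, as was *Aqp1*, but moved little, from 370 to 414 FPKM over the libraries. By sign, 5 of its 8 genes were lower in the mutant and 3 higher. The part of these cells in the *Aqp1* difference was not tested.

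*Mip* was set against the other water channels within each library. The ratio of *Mip* to *Aqp1* was 646 and 443 in the mutant against 311 and 408 in the control libraries, higher in both mutant libraries, with a log2 difference of 0.59 and an exact permutation p of 0.333. The ratio of *Mip* to *Aqp5* was 391 and 486 in the mutant against 416 and 352 in the control libraries, with overlap, a log2 difference of 0.19 and an exact permutation p of 0.667.

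**Figure D3:**
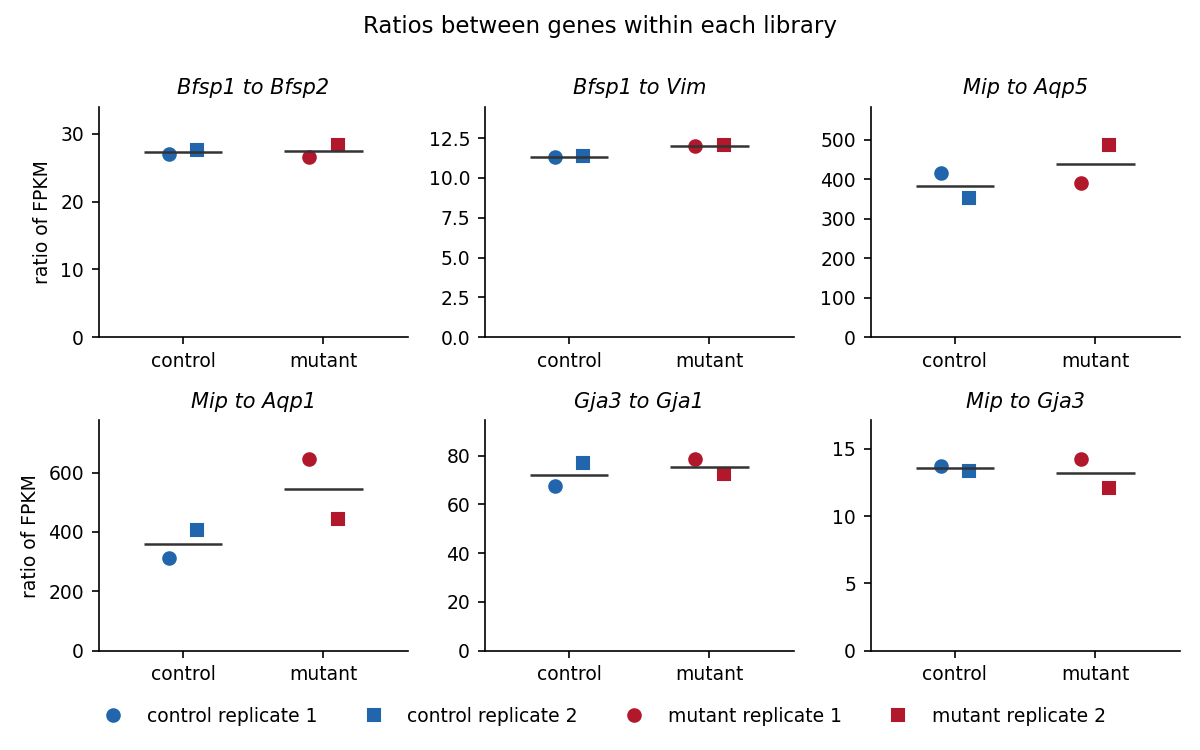
Ratios of FPKM between genes of the family within each library, on linear axes that start at 0. Points are single libraries and bars are group means; the groups are apart for *Bfsp1* to *Vim* (12.0 and 12.0 against 11.3 and 11.4) and for *Mip* to *Aqp1*, and overlap in the other 4 panels.

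*Lim2*, which encodes MP20, an abundant protein of the fibre membrane, was listed at 0 in all 4 libraries. The row lies at chromosome 7, 43079512 to 43085420 on the plus strand (mm39 by the submitters' processing notes), with a length of 884 bases. A second row, *Gm52993*, spans 43077094 to 43085415 with a length of 2180 bases and so covers 99.9% of the *Lim2* span. In GENCODE M21 the identifier of the *Gm52993* row (ENSMUSG00000093639) is that of *Lim2* itself, with a coding transcript of 884 bases and a retained-intron transcript of 2180 bases. Of the exon bases of the coding transcript, 879 (99.4%) lie within exons of the longer one, as do all 519 coding bases. The first 60 coding bases of *Lim2*, present in both transcripts and read from GRCm38 at chr7:43430591-43430650 on the plus strand, are shown as an example of sequence that could not be assigned to one of the transcripts alone.
*Lim2*: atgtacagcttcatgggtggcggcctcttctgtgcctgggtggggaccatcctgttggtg
The *Gm52993* row held 5.20 to 6.07 FPKM in the mutant and 5.97 to 6.65 FPKM in the control libraries, from 222 to 282 reads, with a log2 difference of -0.16 and an adjusted p = 0.810 by limma. The value of 0 is thus no measure of *Lim2*, and no fold is given for it. The ratio of *Mip* to *Lim2* could not be computed.

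Of the gap junction genes, *Gja3* was read at 279 and 290 FPKM in the mutant and 274 and 293 FPKM in the control libraries. The mutant values lay between the control values. The mean was 284 ± 8.20 FPKM (SD, n = 2) in the mutant and 283 ± 13.01 FPKM (SD, n = 2) in the control, and the log2 difference of 0.01 had an interval of -0.24 to 0.25 and an adjusted p = 0.996 by limma. With the libraries set to equal sums of FPKM the difference was -0.04, so the sign is not settled. *Gja1* was read at 3.54 and 4.01 FPKM in the mutant and 4.07 and 3.81 FPKM in the control libraries, with overlap and a log2 difference of -0.06, an interval of -0.37 to 0.25 and an adjusted p = 0.930 by limma. *Gja3* stood at 78.6 and 72.3 times *Gja1* in the mutant and at 67.4 and 76.8 times in the control libraries, with overlap, a log2 difference of 0.07 and an exact permutation p = 0.667. *Mip* stood at 14.3 and 12.1 times *Gja3* in the mutant and at 13.7 and 13.4 times in the control libraries, again with overlap and an exact permutation p = 1.

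Summed over the 8 genes with reads, the libraries held 8232 and 7393 FPKM in the mutant and 7344 and 7837 FPKM in the control, which overlapped. The log2 difference was 0.04 with an exact permutation p = 0.667. *Mip* and *Bfsp1* made up 90.7% to 91.2% of this sum. The family took 1.82% to 1.84% of the reads in every library. The fibre genes of the family that have a value (*Bfsp1*, *Bfsp2*, *Mip* and *Gja3*, with *Lim2* at 0 adding nothing) summed to 26.1 and 25.7 times the genes that the epithelium also makes (*Vim*, *Gja1* and *Aqp1*) in the mutant and to 25.8 and 25.4 times in the control libraries, with overlap and an exact permutation p = 0.667. Over the means, this ratio was 25.7 by the lengths of the table and 12.1 by transcript lengths. *Vim*, which younger fibres also make, held most of the sum below the line, at 257 to 294 FPKM. *Gja1* was at 3.54 to 4.07 FPKM and *Aqp1* at 6.15 to 12.1 FPKM. The ratio thus mostly sets *Mip* and *Bfsp1* against *Vim* and is no measure of fibre against epithelium content.

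By deposited FPKM, libraries of each genotype differed by more than the genotypes did in every gene tested except *Bfsp2* and *Aqp1*. Equal sums of FPKM divide the mutant libraries by 1.10 and 0.937 and the control libraries by 0.952 and 1.02. The differences between libraries were not computed on that scale. *Mip* differed by 0.18 on the log2 scale between the mutant libraries and by -0.05 between the control libraries (replicate 1 minus 2), and *Aqp5* differed by 0.49 and -0.29. In units of the counting error, the 2 mutant libraries were 33.6 standard deviations apart in *Mip*, 27.9 in *Bfsp1*, 3.61 in *Gja3* and 2.30 in *Gja1*. The 2 control libraries were 10.0 apart in *Mip*, 26.1 in *Bfsp1* and 5.79 in *Gja3*, and closest in *Gja1*. These differences carry the FPKM denominators as well as the reads. *Mip* had 151893 and 147553 reads in mutant replicates 1 and 2 and 157107 and 154392 in control replicates 1 and 2. The denominators were 0.944 and 1.05 times the total reads in the mutant and 1.05 and 0.987 times in the control libraries. The reads of *Mip* were thus higher in control replicate 1, unlike its FPKM. In 5 of the 8 genes (*Mip*, *Bfsp1*, *Bfsp2*, *Vim* and *Aqp5*), the FPKM of mutant replicate 1 lay above that of mutant replicate 2. In the same 5 genes the FPKM of control replicate 2 lay above that of control replicate 1. Both orders together were seen in 26.1% of all genes tested. The crystallin share of reads and the summed fibre markers followed this order too, but the fibre markers *Prox1*, *Maf* and *Sox1* did not. *Gja1* and *Aqp1* showed the opposite order in both groups, as 25.1% of all genes did, and so did the summed epithelium markers. Of the single epithelium markers, *Foxe3*, *Pax6* and *Tfap2a* did not. *Foxe3* was at 109 and 119 FPKM in control replicates 1 and 2, and *Pax6* at 7.03 and 6.80 FPKM in mutant replicates 1 and 2. The part of fibre and epithelium content in these differences was not tested.

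**Figure D4:**
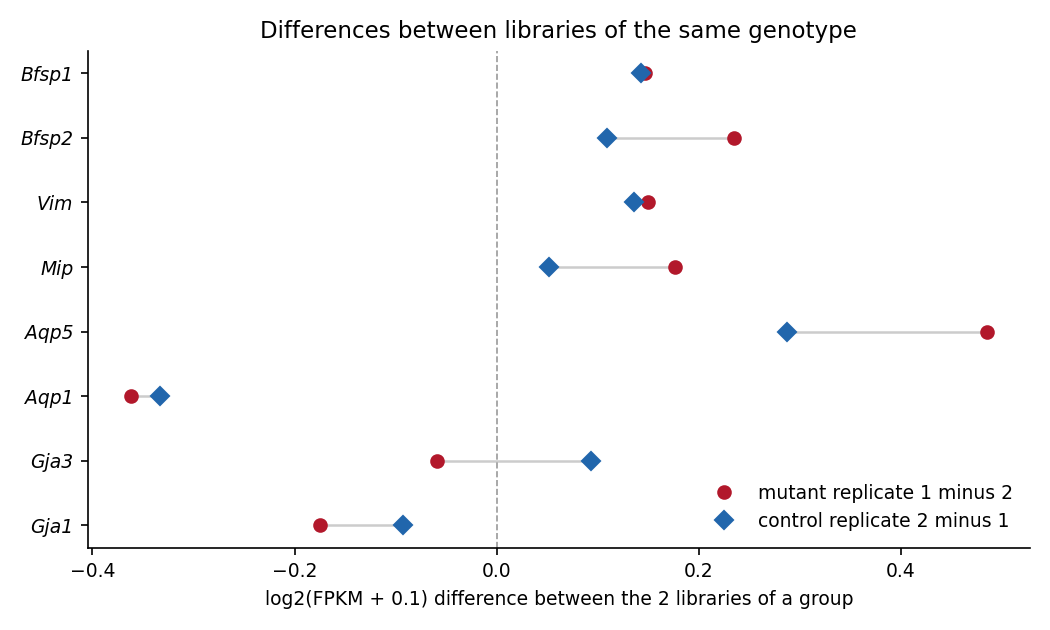
Differences in log2(FPKM + 0.1) between the 2 libraries of the same genotype, mutant replicate 1 minus 2 (circles) and control replicate 2 minus 1 (diamonds). *Mip*, *Bfsp1*, *Bfsp2*, *Vim* and *Aqp5* lie right of 0 in both groups, *Aqp1* and *Gja1* left of 0 in both, and *Gja3* on either side.

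Several genes outside the family followed it closely over the 4 libraries. By the distance between centred log2 values, those nearest to *Mip* among 1668 genes with a mean of at least 10 FPKM were *Perp* (0.015), *Ubl4a* (0.024) and *Eef1g* (0.025), against a median of 0.224. Those nearest to *Gja1* among 1669 genes were *Mpst* (0.027), *Cp* (0.035) and *Htra3* (0.043), against a median of 0.299. With 4 libraries, such likeness is a description of these pools.

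The wider groups of related genes were read from the same test, and no gene of any list passed an adjusted p of 0.05 by limma or by voom. Of 23 intermediate filament and linker genes, 15 were tested and 1 was lower at an unadjusted p under 0.05, against 2.92% of all genes. The median log2 fold change was -0.02 over the 15 and -0.16 over the 12 outside the family. This gene was *Ppl*, encoding periplakin, a linker of the beaded filament to the membrane, at 11.9 and 13.6 FPKM in the mutant and 17.5 and 15.6 FPKM in the control libraries, with a log2 difference of -0.38 and an adjusted p = 0.737 by limma. The most abundant of the others was *Hspb1*, a small heat shock protein that binds filaments, at 1395 and 930 FPKM in the mutant and 924 and 1187 FPKM in the control libraries, which overlapped, as did those of *Synm* (synemin), at 16.1 to 20.2 FPKM.

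Of 23 connexin, pannexin and scaffold genes, 9 were tested, 4 higher and 5 lower in the mutant by sign, with a median log2 fold change of -0.06 over the 9 and -0.17 over the 7 outside the family. The groups were apart in 5 of the 9, against 36.6% of all genes. At an unadjusted p under 0.05, 0 passed by limma, against 6.31% of all genes, and 2 passed by voom, against 7.3%. The lens connexin gene *Gje1* was at 76.1 and 91.1 FPKM in the mutant and 56.0 and 72.6 FPKM in the control libraries, with a log2 difference of 0.38 and an adjusted p = 0.806 by limma. Both mutant libraries lay above both control libraries for *Gje1*. *Tjp1*, encoding the scaffold ZO-1, differed by 0.06 on the log2 scale. *Gja4*, encoding connexin 37, known from vessel endothelium, was low, at 0.366 and 0.455 FPKM in the mutant and 0.794 and 0.580 FPKM in the control libraries. It rested on 11 to 26 reads and had an adjusted p = 0.805 by limma.

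Of 12 aquaporin genes, 6 were tested and 2 were lower at an unadjusted p under 0.05, against 2.92% of all genes, with a median of -0.38 over the 6 and of -0.54 over the 3 outside the family. These were *Aqp1* itself and *Aqp4*, known as a water channel of glia, which was near the floor at 0.513 and 0.459 FPKM in the mutant and 1.06 and 0.688 FPKM in the control libraries. *Aqp4* rested on 56 to 128 reads and had an adjusted p = 0.783 by limma. *Aqp8* (0.319 to 0.549 FPKM) and *Aqp11* (0.138 to 0.232 FPKM) rested on at most 40 reads in a library.

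**Figure D5:**
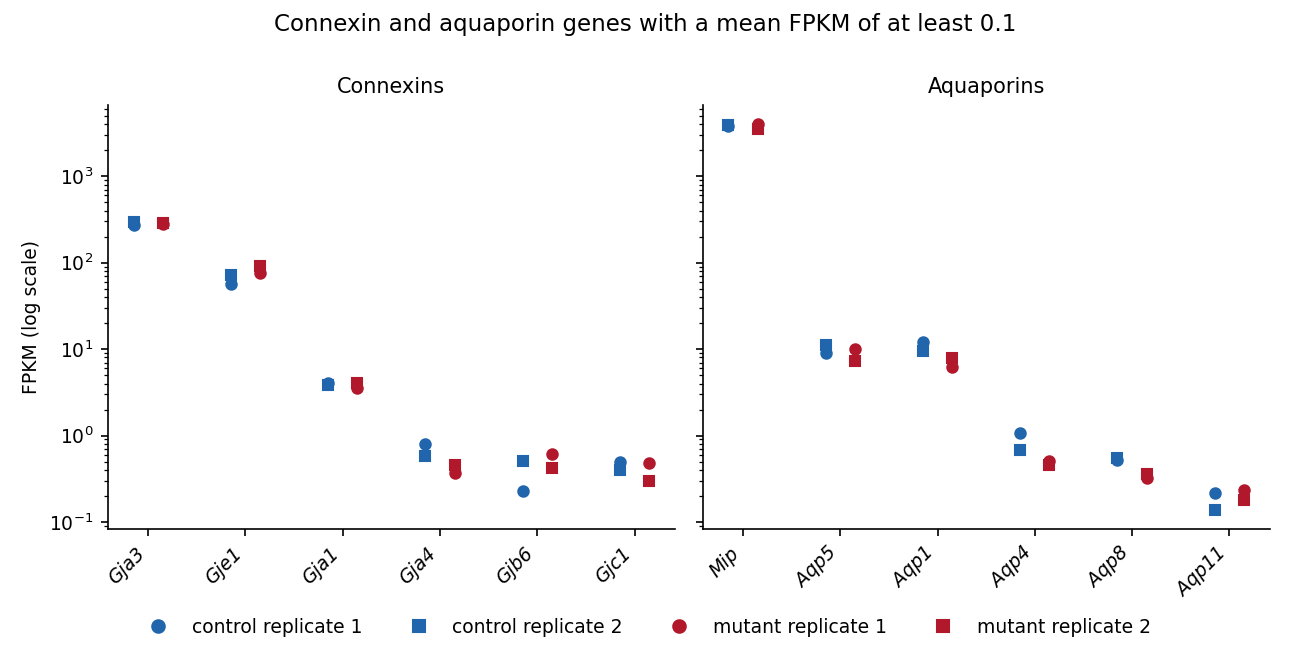
Connexin and aquaporin genes with a mean of at least 0.1 FPKM, in FPKM on a log axis, with 1 point for each library. *Gja3* and *Gje1* lie far above the other connexins shown and *Mip* far above the other aquaporins. The mutant points lie below the control points for *Gja4*, *Aqp1*, *Aqp4* and *Aqp8* and above them for *Gje1*. Groups were apart in 36.6% of all genes tested.

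Of 12 tetraspan genes, *Lim2* itself with PMP22 relatives and claudins, 7 were tested, *Lim2* not among them, with a median of -0.21. At an unadjusted p under 0.05, 1 was lower and 1 higher, against 2.92% and 3.39% of all genes. *Pmp22*, a myelin and epithelial membrane protein, was at 35.4 and 43.2 FPKM in the mutant and 53.2 and 47.8 FPKM in the control libraries, with a log2 difference of -0.37 and an adjusted p = 0.773 by limma. *Emp3*, its relative, was at 0.890 and 0.715 FPKM in the mutant and 0.480 and 0.405 FPKM in the control libraries, from 8 to 17 reads, too few for a firm statement. *Cldn5* and *Cldn12* overlapped between the groups, with log2 differences of 0.04 and -0.05.

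Of 23 regulators and adhesion partners of the fibre membrane, 20 were tested and 1 was higher at an unadjusted p under 0.05, against 3.39% of all genes, with a median of -0.04. It was *Calm2*, one of the calmodulin genes, whose product gates aquaporin-0 and connexins. *Calm2* was at 25.6 and 24.2 FPKM in the mutant and 21.5 and 19.8 FPKM in the control libraries, with a log2 difference of 0.27 and an adjusted p = 0.772 by limma. *Calm3*, which encodes the same protein, differed by -0.09 with overlapping groups. *Ctnnb1* (beta-catenin) and *Ezr* (ezrin) also overlapped, with log2 differences of -0.05 and -0.11. The unadjusted calls of *Ppl*, *Pmp22*, *Aqp4* and *Calm2* held in 1 of 4 fits that left out a library, and that of *Emp3* in 0 of 4.

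Of the other cell types, the summed pericyte, macrophage, and iris and ciliary lists stood apart between the groups. The summed retina, cornea, vessel endothelium and red blood cell lists overlapped. Of all genes tested, 36.6% had groups apart. The summed pericyte list was lower, at 4.78 and 3.99 FPKM in the mutant and 6.02 and 5.80 FPKM in the control libraries, but by sign 2 of its 4 tested genes were lower and 2 higher. *Rgs5* (2.47 to 4.60) made up most of the sum and *Notch3* (0.818 to 1.09) was also lower, whereas the means of *Abcc9* (0.318 against 0.261) and *Kcnj8* (0.185 against 0.114) were higher in the mutant. The macrophage list was higher, at 1.71 and 1.86 FPKM against 0.780 and 0.515 FPKM, with *C1qa* between 0.261 and 1.02 and *Cd68* between 0.0863 and 0.650. These rested on 5 to 19 reads for *C1qa* and 2 to 16 reads for *Cd68*, too few for a firm statement. The summed iris and ciliary list was higher, at 12.1 and 12.8 FPKM against 10.5 and 9.24 FPKM, through *Optc* alone (means of 11.8 against 8.78 FPKM). Its pigment genes *Tyrp1* (0.430 against 0.628) and *Pmel* (0.189 against 0.407) had lower means in the mutant, and *Rpe65* was listed at 0. All of these sums were small beside the lens lists. The pericyte and the iris and ciliary sums were of the order of the low members of the family. These were *Gja1* (3.54 to 4.07 FPKM), *Aqp5* (7.23 to 11.1 FPKM) and *Aqp1* (6.15 to 12.1 FPKM). The part of these cell types in the differences above was not tested.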

How the data were processed

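Messenger RNA of pooled lenses was measured in 2 mutant and 2 control libraries, grouped by the sample labels. The authors' provider aligned reads with Hisat2 and counted them with featureCounts, and the authors deposited FPKM for 56748 genes with gene lengths and positions (mm39 by the submitters' processing notes). The annotation release and strand setting are not given in the sources used here. The authors tested counts with DESeq2, but those counts were not used here, and 0 per-sample columns were left unused. The labels do not say whether libraries share animals, so that p-values measure the spread between these pools.

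Whole reads were recovered from FPKM and gene length, with 100% of values whole within 0.01 of a read. The step showed denominators of 0.944 to 1.05 times the totals of 18561682 to 18878768 reads. Median-ratio scaling divided every library by the same 1.01. The deposited values were thus already level by this measure, and the step left the ratios between libraries as they were. The test took log2(FPKM + 0.1) of the genes whose deposited FPKM averaged 0.1 or more, a scale that understates changes of low genes and used limma (lmFit, eBayes with trend, two-sided, Benjamini-Hochberg over all genes). Ratios and sums were tested by exact permutation over libraries, two-sided. Intervals are 95%. Some genes of the connexin list are not reported here. The members and lists were chosen with earlier results of these data known. Of each list, the 3 highest non-members and every gene with an unadjusted p under 0.05 and groups apart were named, with 3 genes like *Mip* and *Gja1* and the 2 highest genes of each marker list. Alternatives covered pseudocount, filter, scaling, trend, voom with TMM, replicate block, *Xist* covariate and leaving out libraries. Added after the values were seen were voom with the *Xist* covariate, transcript lengths, and a minimum mean of 20 reads.

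Both tests were also run on simulated reads for the mutant versus control comparison. The 200 changed genes were drawn from those with a mean of at least 20 reads. Every gene was drawn with the same fixed dispersion, which was not fitted to the libraries. At a log2 change of 1, limma found 0% over the 15997 genes tested here and 66% over the 11499 genes with at least 20 reads, and voom found 0% and 72%. At a log2 change of 2, limma found 25% and 100% and voom found 89.5% and 100%. Adjusted calls among unchanged genes at a log2 change of 2 numbered 42 and 11 by limma and 0 and 8 by voom. At a log2 change of 1 they numbered 0 and 4 by limma and 0 and 2 by voom. Limma's few adjusted calls over all genes can thus be false, but the simulation cannot say how many are. Unchanged genes passed an unadjusted p of 0.05 in 4.16% to 5.64% of cases. Sequences were read from GRCm38 with GENCODE M21, and no coordinates were moved between builds. The software was R 4.3.3, limma 3.58.1, Python 3.11.15, pandas 2.3.3, scipy 1.17.1 and matplotlib 3.10.9.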

Additional observations from a re-analysis of the deposited data

How the results depend on the processing

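Calls at an adjusted p are few and move with the settings. Limma called 6 genes, and 2 with a pseudocount of 1, a pseudocount of 0.01, a mean FPKM of at least 1, no trend or the replicate block, 1 without a filter, with the *Xist* covariate or with at least 20 reads, and 0 in each fit without a library. Voom called 8 genes, 10 with at least 20 reads and 138 with the *Xist* covariate. None of these calls was a member except *Aqp1* in the last, at -0.63. At an unadjusted p, limma's 1009 genes became 617 at a mean FPKM of at least 1, 660 with equal sums of FPKM and 787 to 1464 without a library. The count of members was 1, but 0 without a trend and without any 1 library, and 2 in voom with the *Xist* covariate. The cause was not tested.

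Scaling turned the sign of small differences: *Vim* to -0.00037 with equal sums without crystallins, *Gja3* to -0.037 and -0.043 with equal sums with and without crystallins, and the summed FPKM to -0.0023 and -0.0082. Leaving out a library gave -0.027 to 0.12 for *Vim*, -0.13 to 0.051 for *Mip*, -0.15 to 0.028 for *Gja1*, -0.041 to 0.052 for *Gja3*, -0.47 to 0.020 for *Aqp5*, -0.80 to -0.44 for *Aqp1* and -0.037 to 0.12 for the sum. The log2 ratios ran from -0.037 to 0.052 for *Bfsp1* to *Bfsp2*, -0.027 to 0.16 for *Gja3* to *Gja1* and -0.16 to 0.074 for *Mip* to *Gja3*. In these fits the lone library is assumed to vary like the other group. *Bfsp1*, *Bfsp2* and *Aqp1* and the ratios of *Bfsp1* to *Vim*, *Mip* to *Aqp5* and *Mip* to *Aqp1* kept their sign under every alternative run.

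For the wider lists, unadjusted calls of filament genes (1) became 0 with equal sums or no trend, 2 in voom, in voom with at least 20 reads and with the *Xist* covariate, 4 in voom with that covariate, and 0 to 1 without a library. Connexin calls (0) became 1 with the replicate block or equal sums without crystallins, 2 with at least 20 reads in either test, in voom and in voom with the *Xist* covariate, and 0 to 1 without a library. Aquaporin calls (2) became 1 with a pseudocount of 1, no filter, a mean FPKM of at least 1, no trend or the *Xist* covariate, and 0 to 1 without a library. Tetraspan calls (2) became 1 at a mean FPKM of at least 1, with equal sums, the replicate block or at least 20 reads in limma, and 0 to 3 without a library. Regulator calls (1) became 0 with equal sums, no trend or the replicate block, 2 with a pseudocount of 0.01, no filter, a mean FPKM of at least 1, voom or at least 20 reads in either test, 3 with the *Xist* covariate, 4 in voom with it, and 0 to 3 without a library. The filament median became -0.14 at a mean FPKM of at least 1 and with at least 20 reads (-0.14 in voom), and -0.059 to -0.021 without a library. The connexin median became 0.065 without a filter, 0.035 at a mean FPKM of at least 1, 0.0056 with at least 20 reads in limma, and -0.041 to 0.028 without a library. The aquaporin median became -0.20 with a pseudocount of 1, -0.15 without a filter, -0.22 at a mean FPKM of at least 1 and at least 20 reads (-0.23 in voom), and -0.45 to -0.29 without a library. The tetraspan median became -0.043 with a pseudocount of 1 and -0.37 to 0.019 without a library. The regulator median became -0.080 with equal sums without crystallins and -0.086 to 0.021 without a library.

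The replicate numbers are taken as names, since no label says that they pair the pools. Deviations of same-numbered libraries correlated at -0.0051 over 15997 genes and at -0.113 over the 8378 genes that averaged 1 FPKM or more. The crossed pairing of mutant replicate 1 with control replicate 2 is the same split as the *Xist* covariate, whose counts are given above. With the replicate block, limma called 877 genes at an unadjusted p and 2 at an adjusted p, and the members' log2 differences were as without it (*Aqp1* at -0.62). Depth limits *Gja4*, *Aqp4*, *Aqp8*, *Aqp11*, *Emp3*, *C1qa* and *Cd68*, which rest on few reads. In the simulation, which gave every gene the same fixed dispersion, log2 changes of 1 were missed at an adjusted p over all genes tested. That dispersion was not fitted to the libraries, so this recovery need not hold for them. The study's own test of counts called changes of about this size, *Lama2* among them.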
